A study of Mus musculus with 10 samples.

Results

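Il1b, Il1rn, Il1r1, Cd14, Tlr4, Nfkbia, Nfkbiz, Tnfaip3, Socs3 and Cxcl1 are 10 genes of interleukin-1 signalling, of lipopolysaccharide sensing and of the NF-κB and SOCS feedback that follows both. They were chosen by their roles, with earlier fold changes and calls of these arrays known, and the row of each was selected on brightness. Their levels were taken from the array row that the platform table assigns to each symbol, the brightest row where a gene has more than 1. They are 10 of the 13942 genes tested, out of 22180 with a row of their own. The samples were liver RNA of female BALB/cByJ mice aged 3 months, hybridised to 10 Affymetrix Mouse Gene 2.1 ST arrays. The groups were Pml KO with food removed for 6 h (3 arrays), Pml wt with food removed for 6 h (3), Pml KO fed ad libitum (2) and Pml wt fed ad libitum (2), called fasted knockout, fasted wild type, fed knockout and fed wild type here. How the Pml allele was made was not analysed here. The labels do not say that each array is a separate animal, so the p-values cover the spread among these arrays alone, which may be technical.

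Interleukin-1β, the product of Il1b, is a cytokine made mainly by macrophages, which in liver are the Kupffer cells. It binds the receptor encoded by Il1r1, and the product of Il1rn occupies that receptor without signalling. Lipopolysaccharide carried by portal blood is handed by CD14 to TLR4. Both receptors signal through MyD88 to NF-κB, a transcription factor held inactive by IκBα, the product of Nfkbia. NF-κB then induces Nfkbia, Tnfaip3 and Cxcl1, so that the pathway limits itself, and Socs3 limits the interleukin-6 branch in hepatocytes.

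The start regions of the feedback and chemokine genes are shown because NF-κB and STAT3 are known to act on genes of this kind. RefSeq promoter windows (GRCm38.p6, 250 bases before to 50 after a start, 300 bases in all) matched 7 of the 10 genes, with 11 windows. Both strands were searched for the 10-letter NF-κB consensus and for TTCNNNGAA, the STAT consensus. Of all 32851 windows, 8.46% held an NF-κB match and 8.30% a STAT match. An NF-κB match stood in a window of 4 of the genes (Nfkbia, Cxcl1, Tnfaip3 and Il1r1), and a STAT match in that of Socs3. In the lines below the capitals mark the matches.
Nfkbia, chr12:55492598-55492897, minus strand, match 29 bases before the start: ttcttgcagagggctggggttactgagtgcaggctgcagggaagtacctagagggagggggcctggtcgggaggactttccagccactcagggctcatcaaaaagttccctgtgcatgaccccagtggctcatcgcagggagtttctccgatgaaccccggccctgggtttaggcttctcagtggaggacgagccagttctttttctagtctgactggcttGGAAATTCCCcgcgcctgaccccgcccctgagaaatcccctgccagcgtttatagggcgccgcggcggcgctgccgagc
Cxcl1, chr5:90890995-90891294, plus strand, 2 overlapping matches 71 and 70 bases before the start: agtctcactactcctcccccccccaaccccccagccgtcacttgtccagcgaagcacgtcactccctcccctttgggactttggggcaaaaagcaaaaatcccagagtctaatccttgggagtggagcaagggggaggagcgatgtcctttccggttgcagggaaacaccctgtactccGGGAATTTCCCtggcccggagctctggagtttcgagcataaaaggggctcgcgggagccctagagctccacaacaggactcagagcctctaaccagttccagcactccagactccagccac
Tnfaip3, chr10:19015361-19015660, minus strand, matches 125 and 12 bases before the start: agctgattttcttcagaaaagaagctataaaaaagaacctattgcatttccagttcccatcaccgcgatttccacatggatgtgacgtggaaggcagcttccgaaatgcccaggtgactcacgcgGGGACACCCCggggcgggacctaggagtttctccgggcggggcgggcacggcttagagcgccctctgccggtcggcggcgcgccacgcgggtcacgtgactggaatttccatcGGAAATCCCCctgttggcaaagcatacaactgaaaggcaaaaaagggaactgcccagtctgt
Socs3, chr11:117969317-117969616, minus strand, STAT match 154 bases before the start: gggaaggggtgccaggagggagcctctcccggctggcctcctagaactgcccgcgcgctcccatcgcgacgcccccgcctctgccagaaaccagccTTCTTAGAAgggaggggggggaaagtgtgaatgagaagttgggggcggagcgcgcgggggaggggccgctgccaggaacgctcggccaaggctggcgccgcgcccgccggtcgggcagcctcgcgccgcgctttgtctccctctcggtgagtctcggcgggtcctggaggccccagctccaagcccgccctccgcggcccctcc
A match is a description of these letters, not of a bound site.

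Array medians lay between 43.5 and 47.5 intensity units (5.44 to 5.57 on the log2 scale), and the array median serves as a floor below. Pml was lower in knockout on every array, at 6.05, 6.35 and 6.14 in fasted knockout, against 7.72, 7.50 and 8.13 in fasted wild type. In fed liver it was 6.91 and 6.41 in knockout, against 8.37 and 8.22 in wild type. The 10 hepatocyte markers lay above the median on all arrays. Fasted knockout replicates 1 and 2 stood apart in clock genes: Arntl was 4.60, 4.53 and 8.87 in fasted knockout replicates 1, 2 and 3, against 9.04 to 9.29 in fasted wild type. In fed liver Arntl was 5.72 and 6.02 in knockout, against 7.50 and 7.10 in wild type. A clock score was taken as the mean log2 of 4 genes of the activator phase minus that of 5 repressor and output genes. It was 2.27 to 3.04 in fasted and -1.46 to -1.27 in fed wild type. In fasted knockout replicates 1, 2 and 3 it was -2.84, -2.55 and 2.42, and in fed knockout -2.10 and -2.45. Dbp was 10.05, 9.80 and 6.00 in fasted knockout, against 6.07 to 6.64 in fasted wild type. Within wild type the effects of feeding and of clock phase therefore cannot be told apart. Fasting in knockout mixes both clock states. In fasted liver genotype and clock phase cannot be told apart on knockout replicates 1 and 2. In fed liver every knockout array had a lower clock score than every wild type array. Genotype and clock state cannot be told apart there either. The interaction uses all of these groups and carries the same limits. Values of the 10 genes without fasted knockout replicates 1 and 2 are given beside the results they touch, and those of the wider pathway lists in a paragraph of their own. In that setting the lone fasted knockout array left is assumed to vary like the arrays of the other groups. Adjustment for the clock score fits 1 slope shared by all groups. Inside the groups the score varies widely only in fasted knockout, so that slope rests largely on replicate 3 against replicates 1 and 2. Clock-adjusted values of the other groups carry that slope over, so they do not separate feeding from clock phase.

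In fasted knockout liver 1 of the 10 genes rose, Il1b, where 0.811% of all genes were called higher and 1.68% in either direction (limma, Benjamini-Hochberg adjusted p under 0.05). In fasted wild type liver 5 of the 10 rose and 0 fell: Il1b, Cd14, Il1r1, Il1rn and Nfkbia. There 8.23% of all genes were called higher and 21.4% in either direction. Fasted and fed arrays did not overlap for 5 of the 10 genes in knockout (36.8% of all genes) and for 6 in wild type (52.7% of all genes). In the lower direction 0.868% of all genes were called in knockout and 13.2% in wild type. The median log2 difference of the 10 genes was 0.35 in knockout and 0.37 in wild type, beside 0.01 and -0.02 over all genes. Il1b and Cd14 passed the filter through their fasted arrays, and Cxcl1 through fasted knockout replicate 1 and fed knockout replicate 2. These counts, and the fasting p-values of those genes, are therefore descriptions and support nothing further. The genes were also chosen with earlier results of these arrays in view.

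**Figure D1:**
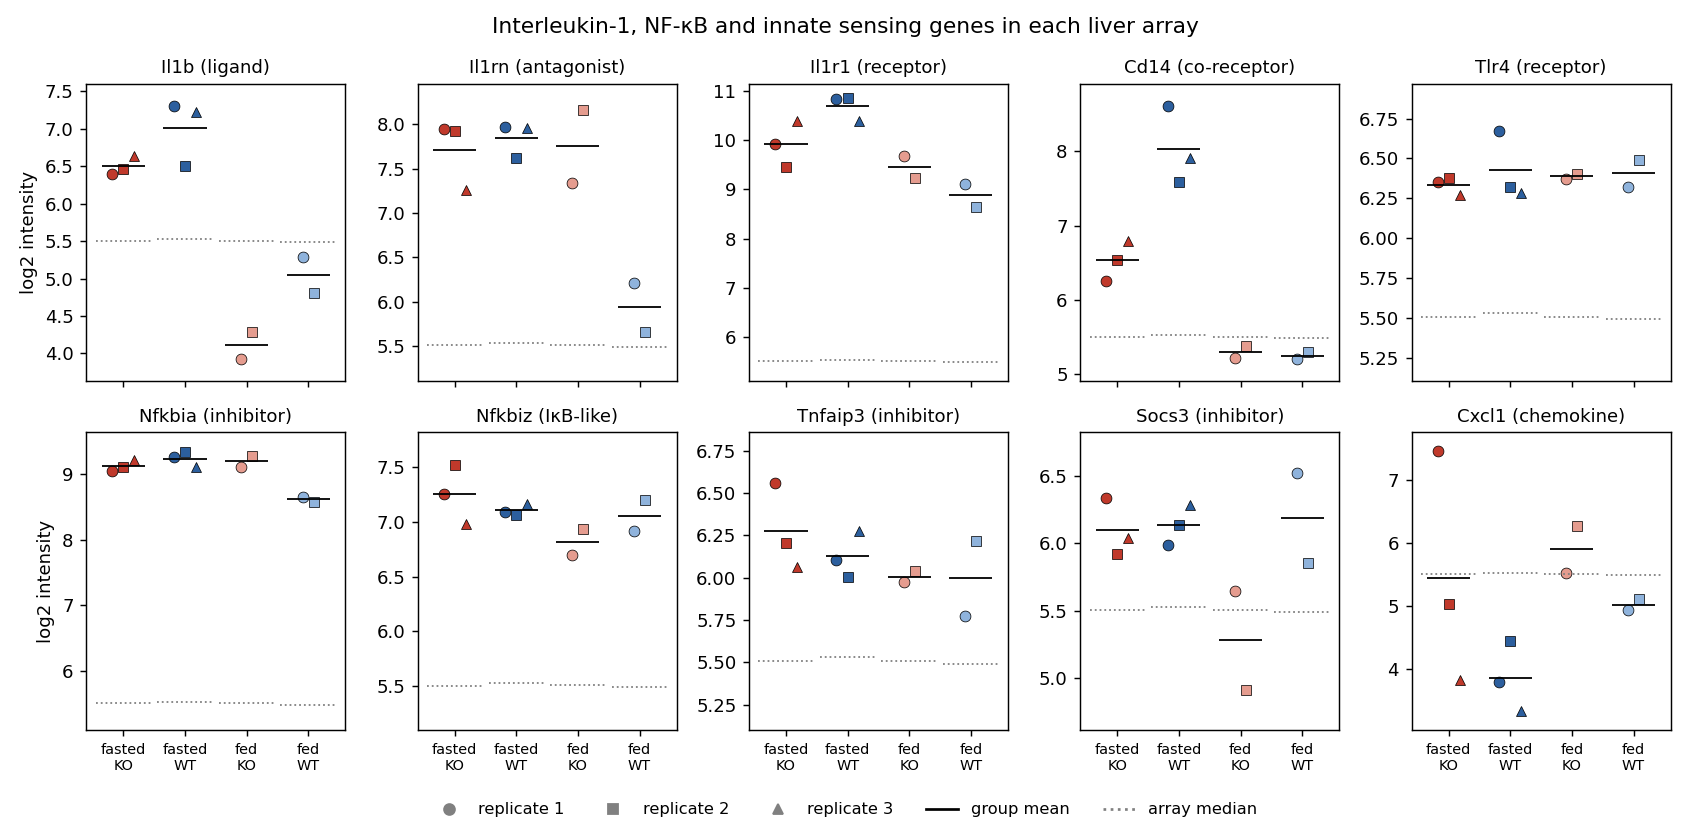
Log2 intensity of the 10 genes on each array (vertical axis) in the 4 groups (horizontal axis; KO knockout, WT wild type), with the group mean as a line and the mean array median of the group dotted; symbols mark replicates. Il1b and Cd14 lie under the median on all fed arrays and above it on all fasted arrays, and Il1rn is low in fed wild type alone, at 6.21 and 5.66.

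Il1b encodes the cytokine itself. It had log2 intensities of 6.39, 6.47 and 6.64 in fasted knockout, against 3.93 and 4.29 in fed knockout. In wild type it was 7.30, 6.51 and 7.23 in fasted liver, against 5.29 and 4.80 in fed liver. Every fed array was under its array median and every fasted array above it, in both genotypes. Measured from that floor, Il1b rose at least 1.99-fold in knockout (fitted log2 2.39, SE 0.25, adjusted p = 0.00797) and at least 2.87-fold in wild type (fitted log2 1.96, SE 0.25, adjusted p = 0.001). The interaction, the fasting difference in knockout minus that in wild type, was 0.43 (SE 0.35, adjusted p = 0.528). These fitted values and their p-values use the measured fed intensities, which lie under the floor. Measured from the floor the log2 rise was at least 0.99 in knockout and at least 1.52 in wild type, the other order. The genotypes are therefore not ranked by their rise. Without fasted knockout replicates 1 and 2 the knockout rise was 2.53 (adjusted p = 0.0411). Omitting fed knockout replicate 2 ended the knockout call (2.57, adjusted p = 0.0753), as did a fit with the replicate number as a block (2.30, adjusted p = 0.0612).

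Between the genotypes Il1b did not pass the test. Knockout minus wild type was -0.51 in fasted liver (SE 0.22, adjusted p = 0.156), where fasted wild type replicate 2 lay within the knockout range, between 6.47 and 6.64. Without that array the fasted difference was -0.77 (adjusted p = 0.0427). It was -0.38 (adjusted p = 0.605) if fasted knockout replicates 1 and 2 were omitted. In fed liver both groups lay under the median, so no difference is read.

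Il1rn, the receptor antagonist, differed from Il1b in its fed level. It was 7.94, 7.92 and 7.26 in fasted knockout, against 7.34 and 8.16 in fed knockout. In wild type it was 7.97, 7.62 and 7.96 in fasted liver, against 6.21 and 5.66 in fed liver. The 2 fed wild type arrays were the low ones, and all 8 others lay between 7.26 and 8.16. The fasting difference of Il1rn was -0.04 in knockout (SE 0.29, adjusted p = 0.952), and in wild type it rose 3.77-fold (log2 1.91, SE 0.29, adjusted p = 0.00219). The knockout difference was -0.50 (adjusted p = 0.489) without fasted knockout replicates 1 and 2.

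The interaction of Il1rn was called, at -1.96 (SE 0.41, adjusted p = 0.0447), the 1 of the 10 genes with such a call, where 2.11% of all genes had one and 0.789% had a negative one. Fasted-minus-fed differences were also taken over every pair of arrays within a genotype, so that the pairs share arrays. Those of knockout did not overlap those of wild type, as was true of 4 of the 10 genes and of 22.4% of all genes. The call was close to the threshold. It was lost without any 1 of the arrays other than fasted knockout replicate 3 (values between -2.37 and -1.55, adjusted p between 0.0566 and 0.127). It was also lost without fasted knockout replicates 1 and 2 together (-2.41, adjusted p = 0.0765), after adjustment for the clock score (-2.30, adjusted p = 0.0580), with the replicate block (-1.96, adjusted p = 0.0772) and with no filter on dim rows (-1.96, adjusted p = 0.109). In fed liver Il1rn was 3.52-fold higher in knockout by the fit (log2 1.82, SE 0.32), with no overlap between arrays, but the adjusted p was 0.118. That comparison and the fasting comparison in wild type share the 2 fed wild type arrays.

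Il1r1 encodes the signalling receptor for interleukin-1. It was 9.93, 9.46 and 10.38 in fasted knockout, against 9.67 and 9.24 in fed knockout. In wild type it was 10.84, 10.85 and 10.39 in fasted liver, against 9.12 and 8.65 in fed liver. Fasted and fed arrays overlapped in knockout and lay well apart in wild type. The fasting difference of Il1r1 was 0.47 in knockout (SE 0.27, adjusted p = 0.383), and in wild type it rose 3.50-fold (log2 1.81, SE 0.27, adjusted p = 0.00220). Their difference did not pass the test (-1.33, SE 0.39, adjusted p = 0.106). With fasted knockout replicates 1 and 2 omitted, the knockout difference of Il1r1 was 0.93 (adjusted p = 0.134) and the interaction -0.87 (adjusted p = 0.260).

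Among fasted knockout arrays, the highest Il1r1 value was that of replicate 3, which shared the clock state of wild type. Knockout minus wild type in fasted liver was -0.77 (SE 0.24, adjusted p = 0.0709) with all arrays. It was -0.31 (adjusted p = 0.594) without replicates 1 and 2, and -0.998 without replicate 3 (adjusted p = 0.0271). In fed liver the difference was 0.57 (SE 0.30, adjusted p = 0.659). With the clock score in the fit, its slope resting largely on the fasted knockout arrays, the wild type fasting difference of Il1r1 was 1.26 (adjusted p = 0.0579). That was short of the threshold.

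Cd14, the lipopolysaccharide co-receptor, showed the highest fitted fasting difference of the 10 genes in wild type. It was 6.26, 6.54 and 6.79 in fasted knockout, against 5.22 and 5.38 in fed knockout. In wild type it was 8.61, 7.59 and 7.91 in fasted liver, against 5.20 and 5.30 in fed liver. All fed arrays lay under the array median, and each fasted knockout array lay between the fed arrays and the fasted wild type arrays. In knockout the fitted difference was 1.23 (SE 0.26, adjusted p = 0.0509), narrowly short of a call, and at least 2.03-fold from the floor. It was 1.49 (adjusted p = 0.0831) without fasted knockout replicates 1 and 2. In wild type Cd14 rose at least 5.84-fold (fitted log2 2.78, SE 0.26, adjusted p = 0.000400). The fitted fasting values of Cd14 and its interaction, with their p-values, use the measured fed intensities, which lie under the floor. Cd14 also passed the filter through its fasted arrays alone, so these p-values are descriptions.

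Cd14 was the 1 gene of the 10 called between genotypes in fasted liver, where it was 2.84-fold lower in knockout (log2 -1.50, SE 0.23, adjusted p = 0.00822). Of all genes 4.43% were called lower there, 6.68% higher and 11.1% in either direction. The arrays of the genotypes did not overlap for 2 of the 10 genes, Cd14 and Il1r1, and for 33.0% of all genes. Without fasted knockout replicates 1 and 2 the difference was -1.25 (SE 0.34) and the call was lost (adjusted p = 0.131). Adjusted for the clock score it was -1.16 (adjusted p = 0.138). The interaction of Cd14 was -1.55 (SE 0.37, adjusted p = 0.0625), and -1.30 (adjusted p = 0.198) without those 2 arrays.

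In bulk liver, fewer cells of a type and less RNA per cell cannot be told apart. The summed intensity of 16 macrophage markers, all above the median on every array, was 7809 to 8845 in fasted knockout, against 6151 to 6680 in fasted wild type. Of these markers 5 of 16 were called higher in fasted knockout and 0 lower, where 6.68% of all genes were called higher and 4.43% lower. Those calls were made with all 10 arrays. The median log2 difference of the 16 markers, knockout minus wild type in fasted liver, was 0.40 with all arrays. It was 0.37 with fasted knockout replicates 1 and 2 omitted, where the 1 array left, replicate 3, had a sum of 8060. In fed liver the sums were 7076 to 7443 in knockout, against 6697 to 8365 in wild type. The 12 neutrophil markers other than Lcn2 summed to 270 to 294 in fasted knockout and 275 to 298 in fasted wild type, and to 252 to 290 in fed knockout and 247 to 286 in fed wild type. Of those 12, 9 lay at or below the array median on every array, S100a8, S100a9, Ly6g and Mpo among them. Lcn2, which hepatocytes also make, was left out of that sum after its values were seen, at 738 to 1489 in fasted knockout and 1136 to 2521 in fasted wild type, and at 272 to 511 in fed knockout and 423 to 458 in fed wild type. With Lcn2 the 13 markers summed to 1032 to 1780 in fasted knockout and 1425 to 2797 in fasted wild type, and to 562 to 763 in fed knockout and 705 to 709 in fed wild type. The 7 monocyte markers summed to 313 to 383 in fasted knockout and 227 to 293 in fasted wild type, with 1 to 4 of them above the median. The 10 stellate cell markers, 9 or 10 of them above the median on each array, summed to 7961 to 8265 in fasted knockout and 8385 to 9023 in fasted wild type, and to 6983 to 7966 in fed knockout and 7707 to 7873 in fed wild type. The 5 cholangiocyte markers with a row, of which 2 to 4 lay above the median, summed to 259 to 282 in fasted knockout and 298 to 330 in fasted wild type, and to 236 to 259 in fed knockout and 273 to 288 in fed wild type. The 12 sinusoidal endothelial markers, all above the median, summed to 6902 to 8007 in fasted knockout and 7572 to 8453 in fasted wild type. Of these 1 was called lower in fasted knockout and 0 higher, beside the shares of all genes given above. The 5 B and plasma cell markers with a row summed to 425 to 492 and 553 to 627 in those groups. The 11 T and NK cell markers with a row summed to 448.7 to 459.1 and 431.3 to 557.5. The part of all these cells in the Cd14, Il1r1 and Il1b results was not tested.

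**Figure D2:**
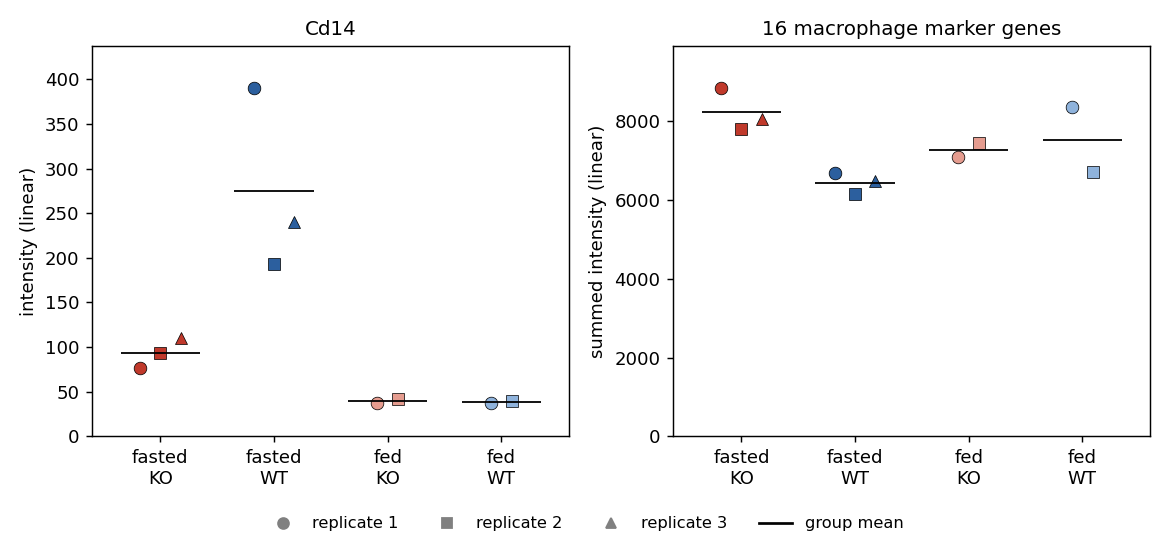
Linear intensity of Cd14 (left) and the summed linear intensity of 16 macrophage marker genes (right) on each array, by group, with group means as lines and symbols for replicates. In fasted liver Cd14 is lower in knockout, while the macrophage sum is 7809 to 8845 in knockout and 6151 to 6680 in wild type.

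Tlr4, the receptor served by CD14, was close to level across the groups. It was 6.35, 6.37 and 6.27 in fasted knockout, 6.67, 6.32 and 6.28 in fasted wild type, 6.37 and 6.41 in fed knockout and 6.32 and 6.49 in fed wild type. The groups overlapped in all 4 comparisons, and no fitted difference was larger than 0.09 in size. The fasting difference was -0.06 in knockout (SE 0.13, adjusted p = 0.858) and 0.02 in wild type (SE 0.13, adjusted p = 0.939).

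Nfkbia is the gene of IκBα, and its start region holds the κB match shown above. It was 9.05, 9.11 and 9.21 in fasted knockout, against 9.10 and 9.28 in fed knockout. In wild type it was 9.25, 9.33 and 9.10 in fasted liver, against 8.65 and 8.57 in fed liver. As with Il1rn, the 2 fed wild type arrays were the low ones. The fasting difference of Nfkbia was -0.07 in knockout (SE 0.11, adjusted p = 0.784), and in wild type it rose 1.53-fold (log2 0.62, SE 0.11, adjusted p = 0.00537).

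The interaction of Nfkbia was -0.69 (SE 0.16, adjusted p = 0.0597), and -0.60 (adjusted p = 0.179) without fasted knockout replicates 1 and 2. In fed liver the fitted knockout difference was 0.58 (SE 0.12, adjusted p = 0.193), with no overlap between arrays. With the clock score in the fit, under the same limit on its slope, the wild type fasting difference of Nfkbia was 0.52 (adjusted p = 0.0990).

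**Figure D3:**
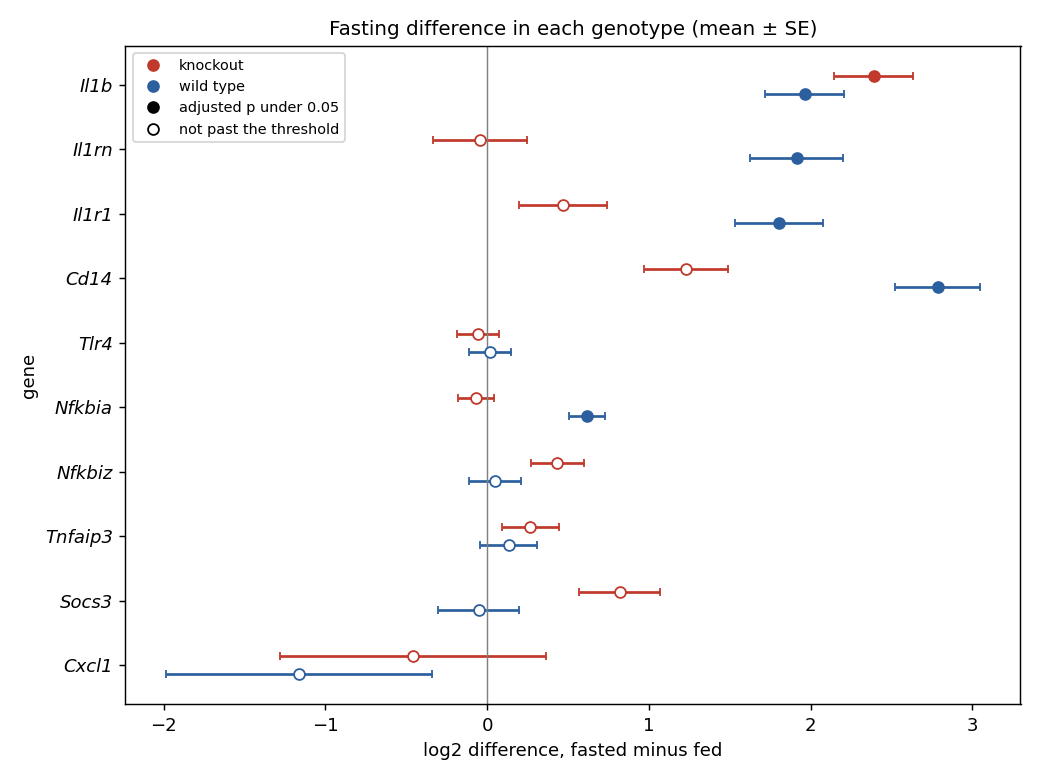
Fitted log2 difference of fasted minus fed liver (horizontal axis) for each gene (vertical axis) in knockout (red) and wild type (blue), with standard errors from the fit; filled points passed an adjusted p of 0.05. In knockout the filled point is that of Il1b, and in wild type Il1b, Il1rn, Il1r1, Cd14 and Nfkbia are filled.

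The other feedback genes were not called in any comparison. Nfkbiz, an inducible nuclear IκB-like protein that takes part in target gene activation, was 7.25, 7.51 and 6.97 in fasted knockout, against 6.69 and 6.93 in fed knockout. It was 7.09, 7.06 and 7.16 in fasted wild type, against 6.91 and 7.19 in fed wild type. Fasted knockout arrays lay above the fed ones (0.43, SE 0.16, adjusted p = 0.191), and wild type arrays overlapped (0.05, SE 0.16, adjusted p = 0.861). Without fasted knockout replicates 1 and 2 the knockout difference was 0.16 (adjusted p = 0.654).

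Tnfaip3 encodes A20, a ubiquitin-editing enzyme that shuts off NF-κB signalling. It was 6.56, 6.20 and 6.06 in fasted knockout, against 5.97 and 6.04 in fed knockout. It was 6.11, 6.00 and 6.28 in fasted wild type, against 5.78 and 6.22 in fed wild type. Values differed little between groups: the fasting difference was 0.27 in knockout (SE 0.18, adjusted p = 0.440) and 0.13 in wild type (SE 0.18, adjusted p = 0.636).

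Socs3, the suppressor of JAK-STAT3 signalling, was low in fed knockout. It was 6.34, 5.92 and 6.04 in fasted knockout, against 5.65 and 4.91 in fed knockout, the second of which lay under the array median. It was 5.99, 6.14 and 6.28 in fasted wild type, against 6.52 and 5.85 in fed wild type. The fasting difference was 0.82 in knockout (SE 0.25, adjusted p = 0.123) and -0.05 in wild type (SE 0.25, adjusted p = 0.907). In fed liver knockout minus wild type was -0.91 (SE 0.27, adjusted p = 0.350) without overlap. A second array row for Socs3 lay under the median on all 10 arrays, between 4.55 and 5.19.

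Cxcl1, a neutrophil-attracting chemokine with κB letters in the window above, was dim and scattered. It was 7.45, 5.03 and 3.83 in fasted knockout replicates 1, 2 and 3, against 5.52 and 6.28 in fed knockout. It was 3.80, 4.45 and 3.33 in fasted wild type, against 4.93 and 5.11 in fed wild type. Replicate 1 of fasted knockout and replicate 2 of fed knockout were the 2 arrays above the array median. The SD within fasted knockout was 1.85 (n = 3), larger than any difference of this gene fitted to all arrays. The fasting difference in knockout was -0.46 (SE 0.82, adjusted p = 0.805) with all arrays. Without fasted knockout replicates 1 and 2 it was -2.07, from the 1 fasted array left, at 3.83 and under the median. Knockout minus wild type in fasted liver was 1.58 (SE 0.74, adjusted p = 0.193) with all arrays. It was -0.03 without fasted knockout replicates 1 and 2, and 2.38 (adjusted p = 0.0402) without replicate 3. In fasted liver all wild type arrays and knockout replicates 2 and 3 lay under the median, so these fitted values are not read as folds. In wild type both fasted and fed arrays lay under the median, so no fold is given.

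Between the genotypes in fed liver 0 of the 10 genes were called by limma, where 0.0861% of all genes were called. At an unadjusted p under 0.05 there were 4 (Il1rn, Nfkbia, Il1b and Socs3), where 8.63% of all genes passed. Arrays did not overlap for 6 of the 10 genes, against 39.9% of all genes. Of these, Il1rn, Nfkbia and Il1r1 were higher in knockout and Socs3 lower. Il1b lay under the median in both genotypes, and Cxcl1 on all fed arrays but knockout replicate 2. The fitted difference of Cxcl1 was 0.88 (SE 0.90, limma adjusted p = 0.856), and none is read for either gene.

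**Figure D4:**
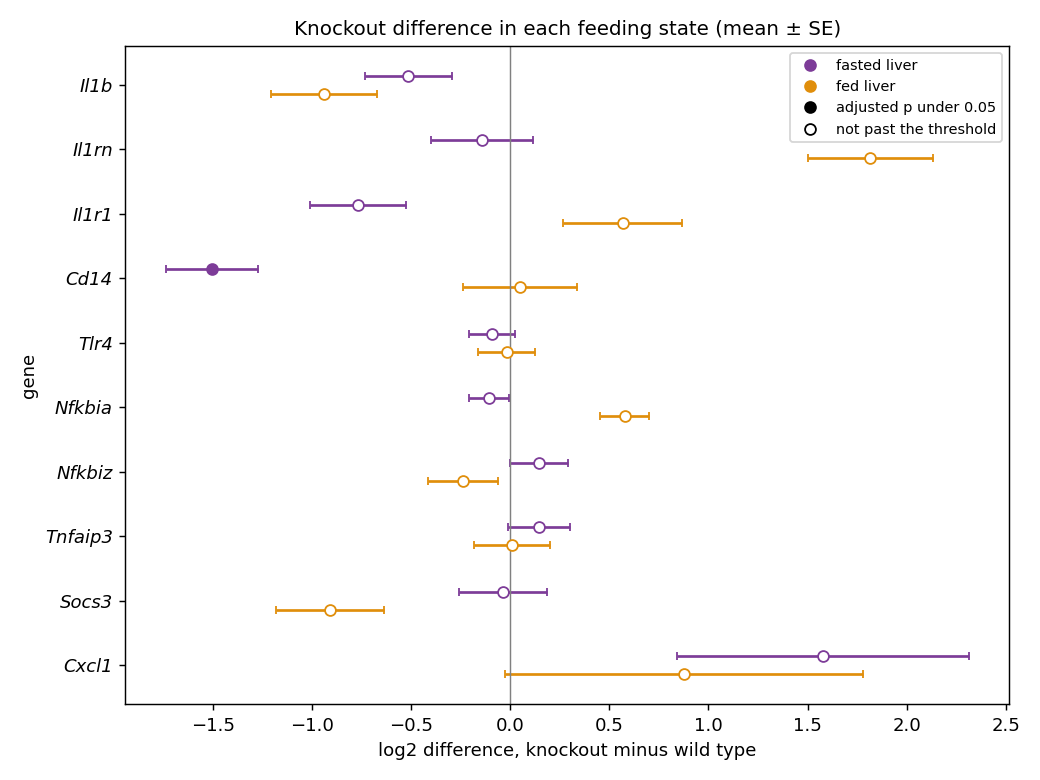
Fitted log2 difference of knockout minus wild type (horizontal axis) for each gene (vertical axis) in fasted liver (purple) and fed liver (orange), with standard errors from the fit; filled points passed an adjusted p of 0.05. The filled point is Cd14 in fasted liver, at -1.50; Il1rn in fed liver stands at 1.82 without passing.

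Across the 10 arrays Pearson r was 0.89 between Il1b and Cd14, 0.88 between Cd14 and Il1r1, and 0.73 between Il1b and Il1r1. It was 0.87 between Il1rn and Nfkbia and 0.74 between Il1r1 and Nfkbia. Il1b and Il1rn, ligand and antagonist, had r = 0.40. Cxcl1 and Cd14 had r = -0.62, and Tlr4 had no r above 0.24. These values are descriptions over 10 arrays that share their groups, so a shared group difference by itself gives a high r.

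Outside the list, the genes most like each member over the 10 arrays (Pearson r) were taken by rule. For Il1rn they were Ppp1r3g (0.96), which directs a phosphatase to glycogen, and Stmn4 (0.95). Ppp1r3g averaged 12.22 in fasted knockout, 12.15 in fasted wild type and 12.07 in fed knockout, against 6.19 in fed wild type. For Nfkbia they were Lpin1 (0.94), a phosphatidate phosphatase and coactivator induced by fasting, and Cep85l (0.93). Lpin1 averaged 10.54, 10.78 and 10.52 in those 3 groups, against 8.78 in fed wild type. For Il1b they were Helb (0.98) and Lamtor3 (0.97), for Cd14 Hspb8 (0.99) and Atp5g3 (0.98), and for Il1r1 Abcd4 (0.97) and Snhg3 (0.96). The other 5 members had best matches between 0.90 and 0.94.

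**Figure D5:**
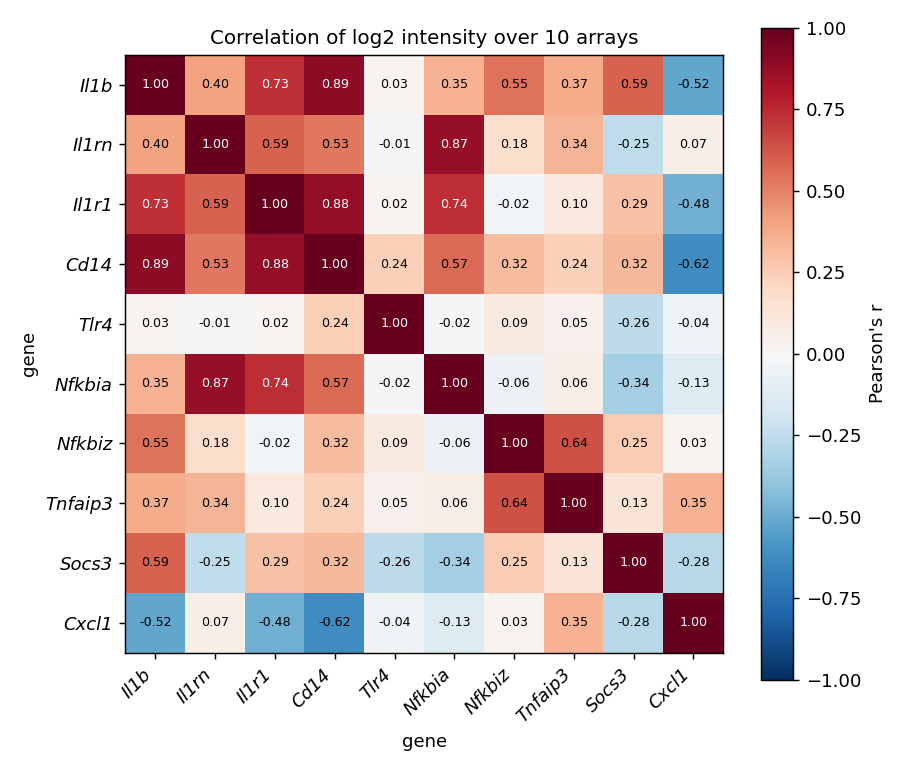
Pearson correlation of log2 intensity over the 10 arrays for each pair of the 10 genes (both axes; colour from -1 to 1). Among the high values are Il1b with Cd14 (0.89), Cd14 with Il1r1 (0.88) and Il1rn with Nfkbia (0.87), and Cxcl1 with Cd14 is at -0.62.

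Other genes of the pathway were taken from 8 lists by role, of 155 entries, of which 145 had a row and 114 were tested. In knockout 2 rose and 2 fell on fasting (3.51%, where 1.68% of all genes were called). In wild type 19 rose and 16 fell (30.7%, where 21.4% of all were called). In fasted liver 10 were higher and 8 lower in knockout (15.8%, beside 11.1%). In fed liver 1 was higher (0.877%, beside 0.0861%). That single gene was Txnip of the inflammasome and cytosolic sensing list (log2 1.47, SE 0.20, limma adjusted p = 0.03985). The interaction was called for 5 (4.39%, beside 2.11%). The median log2 difference of these genes was -0.02 in knockout and -0.04 in wild type on fasting, close to the medians over all genes given above.

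Without fasted knockout replicates 1 and 2 limma called 0 of these 114 genes between genotypes in fasted liver and 0 for the interaction, where all genes gave 6 calls (1549 with all arrays) and 0 calls (294). On fasting in knockout it then called 2 higher (Gadd45b and Nlrp12) and 1 lower (Card9). With the clock score as a covariate it called 0 of the 114 in these 3 comparisons, and 8 higher and 5 lower on fasting in wild type. The calls of single pathway genes given after this paragraph were made with all 10 arrays. Without those 2 arrays knockout minus wild type in fasted liver was 1.48 for Il18 (adjusted p = 0.0856), 0.77 for Tlr3 (0.0938), -0.32 for Rela (0.244), -0.95 for Otud7b (0.0620) and -0.53 for Ccl20 (0.256). The interaction was -0.99 for Il6ra (adjusted p = 0.0935) and -1.02 for Irak2 (0.107). The fasting difference in knockout was 3.12 for Gadd45b (adjusted p = 0.0108), -0.67 for Irak2 (0.114) and 0.81 for Dusp1 (0.0707).

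Values in the paragraphs on these lists are log2 differences or log2 intensities, and adjusted p-values are those of limma over all genes. Among ligands, 1 of 9 tested rose and 3 fell in fasted wild type. Il1a, the other interleukin-1 ligand, rose 0.74 (SE 0.21, adjusted p = 0.0309), at 8.87, 8.46 and 8.09 in fasted wild type, against 7.85 and 7.61 in fed wild type. Il18, a cytokine of the same family, fell by 1.17 (SE 0.24, adjusted p = 0.00839), at 7.41, 6.75 and 6.62 in fasted wild type, against 8.24 and 7.96 in fed wild type. In fasted knockout Il18 was 8.49, 7.98 and 8.41, which is 1.36 above fasted wild type (SE 0.21, adjusted p = 0.00822). Il1a and Il1b thus stood higher in fasted than in fed wild type, and Il18 lower.

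Among receptors, 4 of 17 tested rose and 4 fell in fasted wild type. Il6ra, the interleukin-6 receptor subunit, resembled Il1rn and Nfkbia, at 9.97, 10.02 and 9.97 in fasted knockout, at 10.35, 10.33 and 10.09 in wild type under the same condition, and at 10.28 and 10.06 in fed knockout, against 9.46 and 9.47 in fed wild type. It rose 0.79 in wild type (SE 0.12, adjusted p = 0.00197), and its interaction was called (-0.97, SE 0.16, adjusted p = 0.0291). Tlr3, the sensor of double-stranded RNA, fell by 0.96 in fasted wild type (adjusted p = 0.00142) and was 0.87 higher in fasted knockout than in fasted wild type (adjusted p = 0.00552). Its interaction was called (0.97, adjusted p = 0.0394). Sigirr, a negative regulator of interleukin-1 receptors, fell by 0.74 in wild type (adjusted p = 0.00632).

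Among adaptors and kinases, 2 of 19 rose and 1 fell in fasted wild type. Myd88, the shared adaptor, was 8.50, 8.82 and 8.67 in fasted knockout, against 8.05 and 8.04 in fed knockout (0.62, adjusted p = 0.0619). In wild type it rose 0.68 (SE 0.14, adjusted p = 0.00962), at 8.80, 8.94 and 9.07 in fasted liver, against 8.43 and 8.08 in fed liver. Its interaction was not called (-0.06, SE 0.20, adjusted p = 0.902). Irak2, a kinase of the MyD88 complex, fell by 0.70 on fasting in knockout (SE 0.14, adjusted p = 0.0483), and its interaction was called (-1.06, SE 0.20, adjusted p = 0.0416). It was 7.77, 8.06 and 7.97 in fasted knockout, 8.78, 8.36 and 8.74 in fasted wild type, 8.66 and 8.61 in fed knockout and 8.26 and 8.29 in fed wild type.

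Of 8 IκB kinases and NF-κB subunits, 2 rose and 1 fell in fasted wild type. Rela, the p65 subunit, rose 0.43 (SE 0.11, adjusted p = 0.0187) and was 0.43 lower in fasted knockout than in fasted wild type (log2 -0.43, SE 0.09, adjusted p = 0.0232). Ikbkg, the regulatory subunit of the kinase complex, rose 0.57 in wild type (adjusted p = 0.0176), and Ikbkb, a catalytic subunit, fell by 0.45 (adjusted p = 0.0166).

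Of 13 tested inhibitors, 2 rose and 1 fell in fasted wild type. Dusp1, a phosphatase of stress kinases, rose 0.82 in knockout (adjusted p = 0.0483) and 1.19 in wild type (adjusted p = 0.00167). Its interaction was not called (-0.36, adjusted p = 0.424). Otud7b, a deubiquitinase, rose 0.73 in wild type (adjusted p = 0.00313) and was 0.90 lower in fasted knockout than in fasted wild type (log2 -0.90, adjusted p = 0.00433). Its interaction was called (-0.95, adjusted p = 0.0333). Of 16 inflammasome and cytosolic sensing genes, 2 rose and 3 fell in fasted wild type. Nlrp12, a NOD-like receptor, rose 2.37 (SE 0.35, adjusted p = 0.00209), while Ifih1 and Ddx58, sensors of viral RNA, fell by 1.17 and 1.35 (adjusted p = 0.000956 and 0.00125). In fasted knockout Ifih1 and Ddx58 were 0.95 and 0.97 above fasted wild type (adjusted p = 0.00552 and 0.00920). Their fasting differences in knockout were -0.14 and -0.34, neither called. The interaction was called for Ifih1 (1.02, adjusted p = 0.0426) and not for Ddx58 (1.02, adjusted p = 0.0684). Nlrp12 was 8.42, 8.67 and 9.89 in fasted knockout replicates 1, 2 and 3, so that replicate 3 alone lay at the fasted wild type level of 9.83 to 9.99.

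Of 18 tested NF-κB targets, 5 rose and 1 fell in fasted wild type. Gadd45b, a stress-response gene, rose 2.49 (SE 0.42, adjusted p = 0.0323) in knockout and 4.72 (SE 0.42, adjusted p = 0.000313) in wild type. Its interaction was not called (-2.24, SE 0.59, adjusted p = 0.0832). Gadd45b was 7.75, 9.18 and 9.42 in fasted knockout replicates 1, 2 and 3. On fed wild type replicate 1, at 5.44, it lay under the array median. Vcam1, an endothelial adhesion molecule, had a fasting difference of 0.56 in knockout (adjusted p = 0.0530) and rose 1.02 in wild type (SE 0.12, adjusted p = 0.000811). Its interaction was not called (-0.46, adjusted p = 0.181). Ccl20, a chemokine, rose 0.78 in wild type (adjusted p = 0.00839) and was 0.52 lower in fasted knockout than in fasted wild type (log2 -0.52, adjusted p = 0.0449). Of 14 JAK-STAT3 and SOCS genes, 1 rose and 2 fell in fasted wild type, among them Tyk2, a Janus kinase (fell by 0.82, adjusted p = 0.00143).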

How the data were processed

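Liver RNA was measured on 10 arrays. Per the submitters' processing notes, RMA and Affymetrix Expression Console were used, with the version and build not given in the material read. The authors deposited 1 linear normalized intensity per probe set and array, and log2 was taken of each deposited intensity with no further normalization. Between 228 and 489 rows per array hold an intensity under 0.1, so how the deposited values were summarised is not settled here. Of 41345 rows, 23521 carry 1 gene symbol in the platform table. Rows above the array median (50th percentile) on at least 2 arrays were kept (14617), and the brightest stood for its gene (13942 genes). limma 3.58.1 fitted the 4 group means, with all 10 arrays sharing one variance per gene (R 4.3.3; residual df 6, prior df 3.63), and gave 5 contrasts, with Benjamini-Hochberg adjustment over all genes of a contrast. The fit was tested on simulated data.

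A fold against a group whose arrays all lie at or below the median uses, per array, the higher of that median and the measured value, and is given as "at least". The small number of arrays limits the precision. The replicate numbers in the titles are not stated to pair samples. Named genes are the 10 members, up to 4 called genes of each pathway list and contrast with the smallest p, and 2 genes most like each member, leaving out predicted, microRNA, small nucleolar, olfactory and vomeronasal symbols; Pml, Arntl and Dbp serve as checks. The clock score is the mean log2 of Arntl, Npas2, Clock and Nfil3 minus that of Dbp, Nr1d1, Nr1d2, Per3 and Tef. The members and lists were chosen with earlier results of these data known. Alternatives were array centring, repeated quantile normalization, 2 other filters, row averaging, trend and robust moderation, array weights, the replicate block, the compared groups alone, the clock covariate and omission of arrays. The neutrophil sum without Lcn2, and the pathway and marker lists under the clock covariate or with fasted knockout replicates 1 and 2 omitted, were added after seeing the data.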

Additional observations from a re-analysis of the deposited data

Results flagged for a closer look

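Il1rn had a fasting difference in knockout minus wild type of -1.96 on the log2 scale, which passed the limma test of the difference itself (adjusted p = 0.0447). That call was lost in 9 of 10 single omissions, with no filter (adjusted p = 0.109), with the replicate block (0.0772), under the clock covariate (0.0580) and on omitting fasted knockout replicates 1 and 2 (0.0765). Its lower fed wild type arrays (6.21 and 5.66) set it apart from the 8 other arrays, which lay between 7.26 and 8.16.

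Il1r1 had knockout arrays below wild type arrays in fasted liver and above them in fed liver, with no overlap in either. The test of that difference, at -1.33, did not pass (adjusted p = 0.106), and in fasted liver the nearest arrays were 10.38 in knockout and 10.39 in wild type.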

How the results depend on the processing

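The 5 wild type fasting calls held in each of the 5 omissions of a wild type array (omitting a knockout array leaves the difference itself as it was), and no setting gave a call among the 10 genes in fed liver. Of 1020 comparisons of a gene's value under an alternative with its reported value, 939 kept direction and side of the threshold, 19 lost a call, 16 gained one and 46 changed sign, none of these being called. Omissions gave 0 to 2 called genes for fasting in knockout, 1 to 3 for knockout in fasted liver and 0 to 2 for the interaction. For fasting in knockout 2 genes (Il1b and Cd14) were called with repeated quantile normalization, the 70th percentile filter, trend and robust moderation or array weights. The 70th percentile filter gave 2 for knockout in fasted liver and 3 for the interaction, but only 6 of the genes were tested there, and trend and robust moderation also gave 3 for the interaction. No filter gave 0 for the interaction. The clock covariate gave 3 for fasting in wild type and 0 for knockout in fasted liver and the interaction, and omission of fasted knockout replicates 1 and 2 gave 0 for the last 2. The cause was not tested. Cxcl1 was called for fasting in wild type with only those groups (-1.16, adjusted p = 0.0433) and without those 2 arrays (adjusted p = 0.0455), with both groups under the median.

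Same-numbered arrays of different groups had deviations correlating between -0.17 and 0.11. In a group of 2 arrays the deviations mirror each other, so these values cannot settle whether the numbers pair samples. The titles state no pairing, and the main fit used none. With the replicate block 0 genes were called for fasting in knockout (Il1b 2.30) and 0 for the interaction (Il1rn -1.96), and signs changed for Il1rn (0.041) and Cxcl1 (0.076) in the first of these.

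Uncalled differences changed sign as follows. With the clock covariate, fasting in knockout was 0.12 for Il1rn and 0.18 for Cxcl1, and fasting in wild type 0.0018 for Socs3 and 0.83 for Cxcl1. Knockout in fasted liver was then -0.14 for Nfkbiz, -0.092 for Tnfaip3 and -0.22 for Cxcl1, knockout in fed liver -0.049 for Tnfaip3, and the interaction -0.043 for Tnfaip3 and -0.64 for Cxcl1. Without fasted knockout replicates 1 and 2, fasting in knockout was 0.018 for Nfkbia, knockout in fasted liver -0.13 for Nfkbiz, -0.068 for Tnfaip3 and -0.031 for Cxcl1, and the interaction -0.078 for Tnfaip3 and -0.91 for Cxcl1. Tlr4 on fasting in wild type was -0.023 with centring and -0.0053 with array weights, and in fed liver 0.0018 with quantile normalization. Tnfaip3 in fed liver was -0.0081 with centring and -0.0026 with quantile normalization.

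Over the single omissions, fasting in knockout ran between -0.45 and 0.36 for Il1rn, -0.16 and 0.018 for Nfkbia, and -1.47 and 0.35 for Cxcl1. Fasting in wild type ran between -0.10 and 0.10 for Tlr4, -0.091 and 0.19 for Nfkbiz, -0.088 and 0.35 for Tnfaip3, and -0.39 and 0.28 for Socs3. Knockout in fasted liver ran between -0.26 and 0.085 for Il1rn, -0.16 and 0.030 for Tlr4, and -0.16 and 0.053 for Socs3. Knockout in fed liver ran between -0.035 and 0.13 for Cd14, -0.10 and 0.067 for Tlr4, and -0.21 and 0.23 for Tnfaip3. The interaction ran between -0.16 and 0.048 for Tlr4, -0.086 and 0.35 for Tnfaip3, and -0.30 and 1.51 for Cxcl1.

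Over all genes, calls numbered 234 for fasting in knockout (0 to 504 under other settings, 1 to 170 under omissions), 2990 for fasting in wild type (725 to 3256, 1326 to 3062), 1549 for knockout in fasted liver (0 to 1968, 435 to 1501), 12 for knockout in fed liver (0 to 24, 0 to 17) and 294 for the interaction (0 to 520, 2 to 360). Il1b, Cd14 and Cxcl1 lay near background on many arrays, which limits their folds.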
